A study of Mus musculus with 19 samples.

Results

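The genes described here are the 10 mouse genes Ryr1, Cacna1s, Cacng1, Atp2a1, Casq1, Jph1, Trdn, Stac3, Jsrp1 and Srl, which encode proteins of excitation-contraction coupling in skeletal muscle. They were found by matching the Ensembl identifier of each row, without its version, to these symbols, which gave 10 rows of the 55487 in the count table. All 10 passed the filter on low counts, as did 16909 genes in all. They were followed across 19 libraries of polyadenylated RNA from tissue labelled as oral squamous cell carcinoma, all from C57BL/6J mice that had drunk the carcinogen 4-nitroquinoline 1-oxide (4NQO) at 100 µg/ml for 10 weeks from 6 weeks of age. The groups were regorafenib at 5 mg/kg per day (4 libraries), anti-PD1 (3), anti-PD1+regorafenib (5), an anti-CD40 agonist (3) and vehicle (4). Regorafenib is an oral inhibitor of several receptor and other kinases, anti-PD1 blocks an inhibitory receptor of T cells, and a CD40 agonist stimulates antigen-presenting cells. The sources used here do not give the antibody doses, the dose of regorafenib in the combination, the length of treatment or whether each library came from its own mouse. The p-values therefore measure only the spread between these libraries.

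In a skeletal muscle fibre, an action potential that enters the transverse tubule moves the voltage sensor of the tubule membrane, and the sensor opens the calcium release channel of the adjoining sarcoplasmic reticulum. Calcium leaves the reticulum, the sarcomeres shorten, and a calcium pump fills the store again. The junction of a tubule with its flanking reticulum is the triad, and most of the 10 proteins are held there. The tongue and the floor of the mouth are rich in skeletal muscle, so RNA of a mouth tumour can hold muscle RNA. In whole tissue, fewer muscle fibres and less of an RNA per fibre cannot be told apart.

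Totals ran from 16776177 to 24969492 counts per library, and each of the 10 genes had at least 517 counts in every library. Levels are given as counts-per-million (CPM) after TMM scaling, which evens out differences in total and composition between libraries. The tissue label was checked against 10 squamous epithelium markers, which summed to 53991 to 71503 CPM per library. Most of this came from Krt13 (22804 to 32023 CPM) and Krt4 (17420 to 26174 CPM). The check covers squamous epithelium and not whether it was carcinoma. Some libraries stood apart. All 4 regorafenib libraries held RNA of 5 stomach genes (Pgc, Gkn1, Gkn2, Atp4a and Atp4b), which summed to 7.9 to 106 CPM there. The sum was 0.0481 to 0.201 CPM in vehicle, 0.131 to 0.759 with anti-PD1 and 0.0596 to 0.246 with anti-PD1+regorafenib, and 1 anti-CD40 agonist library reached 11.5 CPM. The part of this stomach RNA in the results was not tested. It was in every library of regorafenib alone, so it cannot be told apart from that treatment in these comparisons.

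The regulatory sequence upstream of the start site was available for 4 of the 10 genes and is shown because the 10 genes varied in near proportion across the libraries. The sequences are from RefSeq on GRCm38.p6, 250 bases before the start annotated in RefSeq, 5′ to 3′ on the strand of the gene. By the GENCODE coordinates used elsewhere here, the windows of Ryr1, Cacna1s and Atp2a1 reach partly into the gene. Capitals mark every CANNTG, the E-box pattern that myogenic factors such as MyoD bind, which reads the same on both strands.

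Ryr1 (chr7:29125152-29125401, minus strand): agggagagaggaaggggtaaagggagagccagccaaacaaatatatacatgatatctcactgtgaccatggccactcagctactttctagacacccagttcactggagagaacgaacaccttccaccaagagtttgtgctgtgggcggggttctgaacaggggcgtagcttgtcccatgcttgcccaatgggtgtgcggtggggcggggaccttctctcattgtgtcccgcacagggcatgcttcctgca
Cacna1s (chr1:136052561-136052810, plus strand): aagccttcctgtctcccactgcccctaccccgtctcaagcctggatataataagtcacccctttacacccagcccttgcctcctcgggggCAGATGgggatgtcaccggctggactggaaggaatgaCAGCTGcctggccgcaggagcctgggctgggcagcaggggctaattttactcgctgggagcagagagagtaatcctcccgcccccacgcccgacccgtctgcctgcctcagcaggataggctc
Atp2a1 (chr7:126463074-126463323, minus strand): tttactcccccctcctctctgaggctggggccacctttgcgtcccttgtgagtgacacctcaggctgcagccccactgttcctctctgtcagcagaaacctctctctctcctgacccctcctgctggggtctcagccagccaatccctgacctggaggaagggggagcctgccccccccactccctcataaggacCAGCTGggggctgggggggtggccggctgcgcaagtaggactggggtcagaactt
Casq1 (chr1:172219896-172220145, minus strand): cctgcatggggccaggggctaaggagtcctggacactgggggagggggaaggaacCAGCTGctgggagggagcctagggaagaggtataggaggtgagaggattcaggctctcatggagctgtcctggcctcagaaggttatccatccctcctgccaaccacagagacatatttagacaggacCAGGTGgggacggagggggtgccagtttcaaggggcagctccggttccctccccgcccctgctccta

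Cacna1s and Casq1 had 2 E-box matches each, Atp2a1 had 1 and Ryr1 had 0, while 66.2% of 32851 mouse promoter windows of this length held at least 1. The form CAGCTG, which is counted among the E-boxes, occurred once each upstream of Cacna1s, Atp2a1 and Casq1, beginning at base -123, -55 and -195 from the start, and in 13% of all windows. TATAAA, the TATA box, searched on both strands, occurred in 0 of the 4 windows and in 12.4% of all windows. These are matches of letters, and binding was not measured.

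Per kilobase of exon, which allows genes to be compared with each other, Atp2a1 was by far the most abundant member, at 1554 CPM per kb in regorafenib and 2206 in vehicle. Atp2a1 encodes the calcium pump of fast-twitch fibres, SERCA1, and it took 73.7% to 77.9% of all counts of the 10 genes. Srl followed with 67.8 CPM per kb in regorafenib and 98.2 in vehicle, and Casq1 with 52 and 67.2 CPM per kb in the same order of groups. Jsrp1, Ryr1, Cacna1s, Cacng1 and Trdn lay between 20.1 and 40.9 CPM per kb in regorafenib and between 29.8 and 49.8 in vehicle. Stac3 and Jph1 were lowest, at 14.2 and 11.4 CPM per kb in regorafenib and 18.8 and 15.6 in vehicle. The order of the 10 genes was the same in both groups except that Cacng1 stood above Cacna1s in regorafenib and below it in vehicle.

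Together the 10 genes took 0.64% to 0.757% of all counts in the 4 regorafenib libraries and 0.908% to 1.11% in the 4 vehicle libraries. The share was 0.884% to 1.27% in the 11 libraries of the other 3 groups. No library outside the regorafenib group came down to the regorafenib range.

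**Figure D1:**
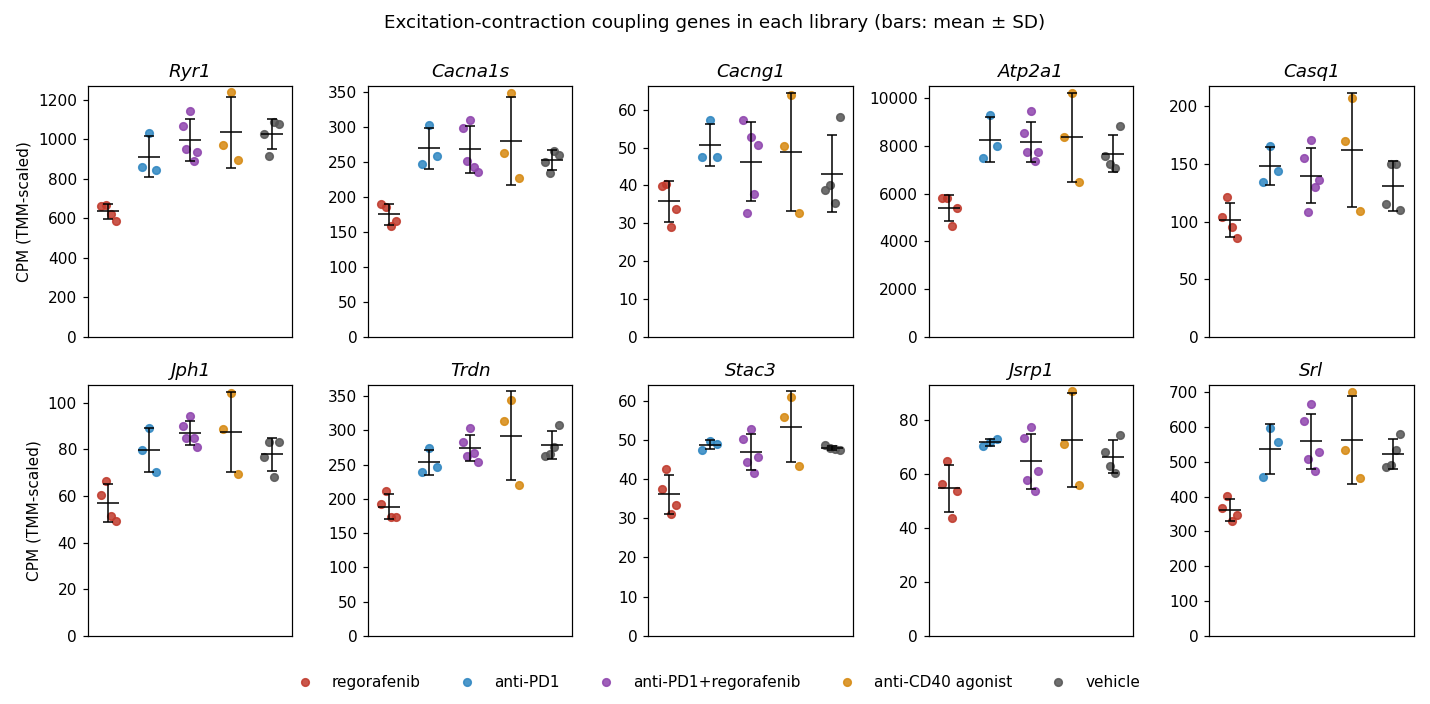
TMM-scaled CPM of the 10 coupling genes in each of the 19 libraries, with 1 panel per gene, groups from left to right regorafenib, anti-PD1, anti-PD1+regorafenib, anti-CD40 agonist and vehicle, and bars for mean ± SD. The regorafenib libraries lie below all others for Ryr1, Cacna1s, Atp2a1, Jph1, Trdn and Srl.

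The comparison of regorafenib with vehicle addresses the kinase inhibitor given alone. Of the 10 coupling genes, 7 were lower with regorafenib and 0 were higher at an adjusted p below 0.05 (edgeR quasi-likelihood test, Benjamini-Hochberg over 16909 genes), where 6.32% of all genes tested were called, 3.32% as higher and 3.00% as lower. The median log2 change of the 10 was -0.48, against 0.00 over all genes tested. All 10 estimates were below 0, from -0.69 for Ryr1 to -0.27 for Cacng1. For 7 of the 10 every regorafenib library lay below every vehicle library, as it did for 7.88% of genes tested.

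The voltage sensor is the skeletal L-type calcium channel. Its pore-forming subunit Cacna1s had 190, 186, 159 and 166 CPM in regorafenib and 250, 234, 266 and 260 CPM in vehicle. The groups did not overlap, and Cacna1s fell by 0.53 ± 0.12 on the log2 scale (SE; adjusted p = 0.017 with edgeR). Stac3, an adaptor needed to bring this channel to the triad and to couple it to release, had 37.5, 42.5, 31.1 and 33.4 CPM in regorafenib and 48.7, 47.9, 47.7 and 47.3 CPM in vehicle. The vehicle libraries were almost equal, the regorafenib libraries were all below them, and the log2 change was -0.41 ± 0.10 (adjusted p = 0.0253 with edgeR). Cacng1, the gamma subunit, which restrains the channel's current, had 39.8, 40.3, 29.1 and 33.9 CPM in regorafenib and 38.8, 40.2, 35.4 and 58 CPM in vehicle. These groups overlapped, with 1 high vehicle library, and the change of -0.27 ± 0.21 did not pass (adjusted p = 0.468 with edgeR). Jsrp1 encodes JP-45, a protein of the junctional reticulum that binds both the sensor and calsequestrin. Its CPM were 56.2, 64.9, 43.5 and 53.7 in regorafenib and 67.9, 63, 60.2 and 74.3 in vehicle. They overlapped through the second regorafenib library, and the change of -0.28 ± 0.14 did not pass (adjusted p = 0.232 with edgeR).

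Ryr1, the calcium release channel of skeletal muscle, had 662, 669, 621 and 587 CPM in regorafenib and 1026, 918, 1086 and 1076 CPM in vehicle. The groups were far apart, with the largest log2 change of the 10 genes, -0.69 ± 0.11, or 0.618 of the vehicle level (adjusted p = 0.00267 with edgeR).

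Jph1 and Trdn build the junction. Jph1, junctophilin 1, spans the gap between tubule and reticulum, and had 60.4, 66.5, 51.6 and 49.2 CPM in regorafenib and 76.8, 83, 68.1 and 83.2 CPM in vehicle. The highest regorafenib library was just under the lowest vehicle library, and the log2 change was -0.45 ± 0.11 (adjusted p = 0.0288 with edgeR). Trdn, triadin, ties calsequestrin to the release channel, and had 193, 212, 174 and 174 CPM in regorafenib and 263, 266, 276 and 308 CPM in vehicle. The groups were well apart, with a log2 change of -0.56 ± 0.11 (adjusted p = 0.00923 with edgeR).

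The calcium store and its refilling are represented by Atp2a1, Srl and Casq1. Atp2a1 had 5796, 5795, 4625 and 5403 CPM in regorafenib and 7571, 7222, 7075 and 8809 CPM in vehicle. It fell by 0.50 ± 0.13 on the log2 scale without overlap of the groups (adjusted p = 0.0267 with edgeR). Srl encodes sarcalumenin, a calcium-binding protein of the longitudinal reticulum that acts with the pump, and had 368, 401, 329 and 347 CPM in regorafenib and 485, 492, 533 and 581 CPM in vehicle. It fell by 0.53 ± 0.13, again without overlap (adjusted p = 0.0233 with edgeR). Casq1, the calsequestrin of fast fibres and the main calcium buffer of the store, had 104, 121, 95.7 and 85.5 CPM in regorafenib and 115, 150, 150 and 110 CPM in vehicle. The second regorafenib library exceeded 2 vehicle libraries, and the change of -0.37 ± 0.18 did not pass (adjusted p = 0.215 with edgeR).

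The number of calls rested on few libraries. Of the 7 genes, 2 were called without vehicle library 4, 2 without regorafenib library 4 and 3 without regorafenib library 3. Over all genes tested the 1069 calls became 269, 280 and 645 in these fits. Ryr1 and Trdn were called in all 19 fits that left out 1 library, with adjusted p at most 0.0168 for Ryr1 and 0.0389 for Trdn with edgeR. Cacna1s missed the threshold without vehicle library 4 or regorafenib library 4, and Atp2a1 without either of these or regorafenib library 3. Srl, Stac3 and Jph1 missed it in 5, 5 and 6 of the 19 fits, each of which left out a vehicle or a regorafenib library. The log2 change of each of the 10 genes was below 0 in all 19 fits.

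**Figure D2:**
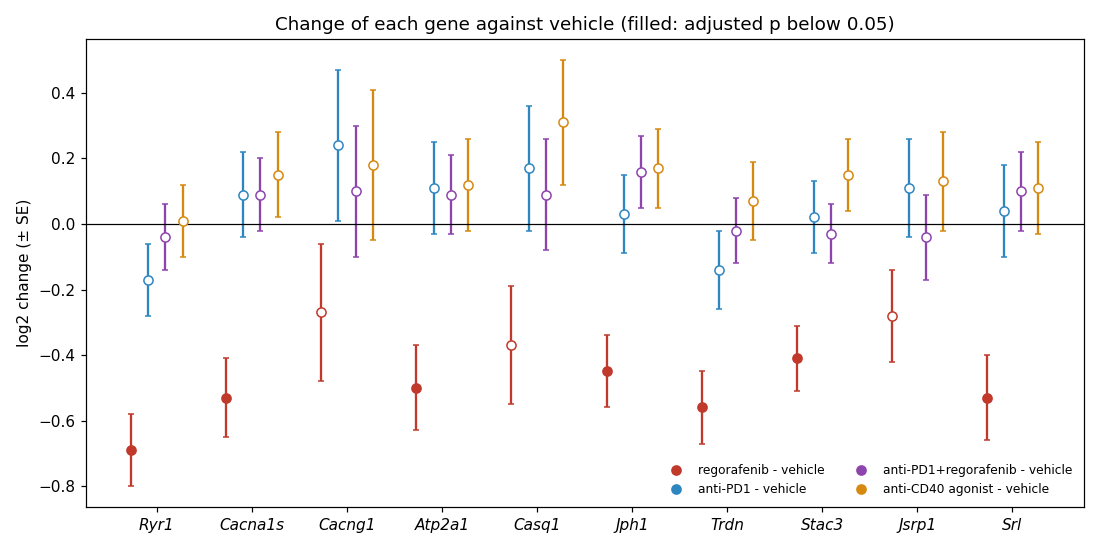
Log2 change of each coupling gene against vehicle, ± SE, for regorafenib, anti-PD1, anti-PD1+regorafenib and the anti-CD40 agonist, with filled points for an adjusted p below 0.05. The regorafenib estimates run from -0.69 to -0.27, and the estimates of the other 3 groups from -0.17 to 0.31.

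No change of the coupling genes was called with the other 3 treatments. Against vehicle, 0 of the 10 genes were called with anti-PD1, where 0% of genes tested were called, 0 with anti-PD1+regorafenib, where 0.0237% were called, and 0 with the anti-CD40 agonist, where 0% were called. Each count of 0 came from edgeR, it was also 0 with DESeq2 and with limma, and 0 of the 10 had an unadjusted p below 0.05 in any of the 3 comparisons. The median log2 change of the 10 genes was 0.07 with anti-PD1, 0.09 with anti-PD1+regorafenib and 0.14 with the anti-CD40 agonist. These 3 comparisons and the one of regorafenib share the vehicle libraries. Ryr1 averaged 913 ± 103 CPM with anti-PD1 (SD, n = 3), 998 ± 105 CPM with anti-PD1+regorafenib (n = 5) and 1035 ± 179 CPM with the anti-CD40 agonist (n = 3), against 1027 ± 77.2 CPM in vehicle (n = 4). Its log2 changes were -0.17 ± 0.11, -0.04 ± 0.10 and 0.01 ± 0.11 in the same order. Atp2a1 averaged 8257 ± 937 CPM with anti-PD1, 8162 ± 832 CPM with anti-PD1+regorafenib and 8350 ± 1874 CPM with the anti-CD40 agonist, against 7669 ± 788 CPM in vehicle. Casq1 had the largest positive estimate, 0.31 ± 0.19 with the anti-CD40 agonist, from 170, 207 and 109 CPM there and 115, 150, 150 and 110 CPM in vehicle. The groups overlapped, and the anti-CD40 agonist libraries were the most uneven of all for this gene.

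Regorafenib had the lowest of the 5 group means for 10 of the 10 genes, as it had for 29.0% of genes tested. For Ryr1, Cacna1s, Atp2a1, Jph1, Trdn and Srl, every regorafenib library was below every one of the 15 other libraries, which held for 1.87% of genes tested. Stac3 missed this because 1 anti-PD1+regorafenib library had 41.4 CPM, under the 42.5 CPM of the highest regorafenib library. In the test of any difference among the 5 groups, 7 of the 10 genes passed, against 4.49% of all genes tested, and Ryr1 had the smallest adjusted p of the 10 (0.00984 with edgeR). That count was 0 without regorafenib library 4, and 1 without regorafenib library 1 or 3, and the 760 calls over all genes became 39, 69 and 186 without regorafenib library 4, 1 and 3.

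Against the anti-PD1 libraries, 7 of the 10 genes were lower with regorafenib and 0 were higher (8.34% of genes tested called, 4.16% as higher and 4.18% as lower), with a median log2 change of -0.51. Cacna1s changed most, by -0.62 ± 0.13 (adjusted p = 0.0182 with edgeR), and its highest regorafenib library, 190 CPM, was under its lowest anti-PD1 library, 247 CPM. The count was 0 without anti-PD1 library 1 or 2, 2 without regorafenib library 3, and 3 without regorafenib library 1 or 4. Over all genes tested the 1410 calls became 37 without anti-PD1 library 1, 20 without anti-PD1 library 2, and 421, 308 and 342 without regorafenib library 3, 1 and 4. Against the anti-CD40 agonist libraries, 7 of the 10 were lower with regorafenib and 0 were higher (2.01% called, 0.349% as higher and 1.66% as lower), with a median of -0.63. The comparisons of regorafenib with vehicle, anti-PD1, the anti-CD40 agonist and the combination all use the same regorafenib libraries, as does the interaction. Their counts are therefore not independent repeats. Ryr1 had 662, 669, 621 and 587 CPM in regorafenib and 970, 1238 and 898 CPM with the anti-CD40 agonist, a log2 change of -0.71 ± 0.11 (adjusted p = 0.0061 with edgeR). The count was 0 without anti-CD40 agonist library 2, 1 without regorafenib library 4, 2 without anti-CD40 agonist library 1 and 4 without regorafenib library 3. Over all genes tested the 340 calls became 0 without anti-CD40 agonist library 2, 44 without regorafenib library 4 and 49 without anti-CD40 agonist library 1. The count of the 10 was also 0 when only these 2 groups were fitted, where 2 of all genes were called. Sarcomere genes fell in both comparisons too. Of 22, 9 were lower with regorafenib against anti-PD1 (median -0.49) and 8 against the anti-CD40 agonist (median -0.54), with 0 higher in each.

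The combination asks whether anti-PD1 given with regorafenib changed these genes from either drug alone. Against regorafenib alone, 7 of the 10 genes were higher with anti-PD1+regorafenib and 0 were lower (10.5% of genes tested called, 5.67% as higher and 4.79% as lower), with a median log2 change of 0.57. Ryr1 had 1070, 951, 1143, 889 and 936 CPM with anti-PD1+regorafenib and 662, 669, 621 and 587 CPM with regorafenib. The 5 combination libraries were all above the 4 regorafenib libraries, and the log2 change was 0.65 ± 0.10 (adjusted p = 0.00352 with edgeR). Srl had 618, 509, 665, 475 and 529 CPM with the combination and 368, 401, 329 and 347 CPM with regorafenib, a change of 0.63 ± 0.12 (adjusted p = 0.00739 with edgeR). Cacna1s rose by 0.61 ± 0.11, Jph1 by 0.61 ± 0.11, Atp2a1 by 0.59 ± 0.12, Trdn by 0.54 ± 0.10 and Stac3 by 0.37 ± 0.10. Casq1, with 0.46 ± 0.17, Cacng1, with 0.37 ± 0.20, and Jsrp1, with 0.24 ± 0.14, did not pass (adjusted p = 0.0913, 0.248 and 0.251 with edgeR). Stac3 missed the threshold without combination library 1 or 3 or regorafenib library 3 or 4, and the other 6 were called in all 19 fits that left out 1 library. Other muscle genes and epithelial markers moved in this comparison as well. Of 22 sarcomere genes 10 were higher with anti-PD1+regorafenib and 0 were lower (median 0.50), and of 8 smooth muscle and pericyte markers, which include the desmin gene Des that skeletal fibres also express, 3 were higher and 0 were lower (median 0.34). Of 10 squamous epithelium markers 4 were lower and 0 were higher, with all 10 estimates below 0 (median -0.34). The part of these markers in the rise of the coupling genes was not tested, apart from the fits with the sarcomere and salivary gland scores.

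Against anti-PD1 alone, 0 of the 10 genes were called with the combination by edgeR, DESeq2 or limma, and 0 had an unadjusted p below 0.05 with edgeR (0.00591% of genes tested called). The estimates ran from -0.15 for Jsrp1 to 0.13 for Ryr1 and Jph1. The interaction sets the change with regorafenib in the presence of anti-PD1 against the change in its absence. It was above 0 for all 10 genes, with a median of 0.50 against 0.00 over all genes tested, and 1 of the 10 passed (0.627% of genes tested called). That gene was Ryr1, with 0.82 ± 0.15 (adjusted p = 0.0248 with edgeR), from 998 ± 105 CPM in the combination (SD, n = 5), 913 ± 103 with anti-PD1 (n = 3), 635 ± 38 with regorafenib (n = 4) and 1027 ± 77.2 in vehicle (n = 4). Trdn, at 0.68 ± 0.16, was just short of the threshold (adjusted p = 0.0551 with edgeR). Sarcomere genes had the same direction, with 20 of 22 above 0 and 2 below, and a median of 0.41. Of these 22, 1 passed, Neb, at 0.92 ± 0.15 (adjusted p = 0.0138 with edgeR). The Ryr1 interaction was not called without vehicle library 3 or 4, anti-PD1 library 1 or 3, or regorafenib library 4, with adjusted p up to 0.106 with edgeR.

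The size of the change with regorafenib against vehicle followed the summed exon length of the gene, taken over all its annotated transcripts. Summed exon length ran from 1249 bases for Cacng1 and 1333 for Jsrp1, which changed least, to 9352 for Trdn and 21838 for Ryr1, which changed most, and Spearman's rho between length and log2 change was -0.98 across the 10 genes. The 10 points share their libraries and the longer genes have more counts at a given level, so the value is a description. Across the 22 sarcomere genes rho was -0.52. Across the 10 coupling genes it was -0.25 for regorafenib against anti-PD1 and -0.68 against the anti-CD40 agonist, and 0.84 for the combination against regorafenib. Comparisons without a call among the 10 had values of -0.30 for the combination against vehicle, -0.82 for anti-PD1 against vehicle, -0.73 for the anti-CD40 agonist against vehicle and 0.90 for the combination against anti-PD1. Over all genes tested, the median log2 change fell in the same direction but far less steeply, being 0.05 in the shortest of 5 length bins (57 to 1930 bases) and -0.06 in the longest (7059 to 123179 bases). With offsets that remove, in each library, the trend of counts with exon length and GC content, the 10 changes drew together to between -0.52 and -0.32, Ryr1 came to -0.49 ± 0.10 and 7 of the 10 were still called. The order by length remained in large part, with rho -0.81. The interaction had the same gradient (rho 0.95 across the 10 genes), and over all genes its median was -0.11 in the shortest bin and 0.13 in the longest. With the offsets the Ryr1 interaction was 0.57 ± 0.14 and no longer called (adjusted p = 0.124 with edgeR), the other 9 genes ran from 0.29 to 0.59, and rho was 0.76.

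**Figure D3:**
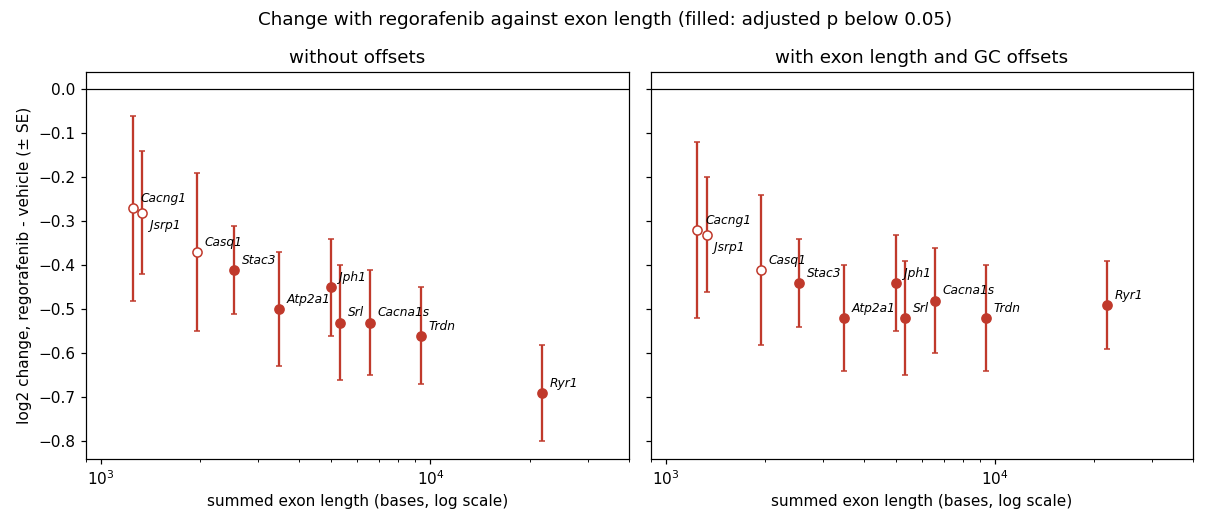
Log2 change with regorafenib against vehicle, ± SE, by summed exon length on a log axis, without offsets (left) and with offsets for exon length and GC content (right), filled where the adjusted p is below 0.05. The range narrows to -0.52 to -0.32 with offsets, from -0.69 to -0.27 without them.

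The decline was shared by muscle genes outside calcium release. Of 22 sarcomere genes, 10 fell with regorafenib and 0 rose, with a median log2 change of -0.44, where 3.00% of all genes tested fell and the median was 0.00. Among them were Neb, the thin filament ruler nebulin (-0.66 ± 0.11), Myom1 of the M-band (-0.58 ± 0.11), Mybpc1, slow myosin-binding protein C (-0.62 ± 0.12), and Tcap of the Z-disc (-0.58 ± 0.13). Ttn, the spring protein titin, changed by -0.43 ± 0.13 and passed narrowly (adjusted p = 0.0499 with edgeR), whereas Acta1, skeletal actin, at -0.45 ± 0.15, did not (adjusted p = 0.0686). Sarcomere genes took 2.9% to 3.54% of counts in regorafenib and 4.01% to 4.68% in vehicle. Of 12 genes of membrane excitation and the neuromuscular junction, 7 fell and 0 rose (median -0.49), including the muscle sodium channel Scn4a (-0.62 ± 0.12), the potassium channel Kcnj2 (-0.34 ± 0.08), acetylcholinesterase Ache (-0.53 ± 0.13) and the junctional kinase Musk (-0.70 ± 0.19).

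Of 25 further genes of the triad, tubule and reticulum, 10 fell and 0 rose (median -0.35). Slc8a3, a sodium-calcium exchanger, had 30.7, 27.8, 27.4 and 26.8 CPM in regorafenib and 41.5, 42.8, 36.7 and 53.9 CPM in vehicle (-0.63 ± 0.11, adjusted p = 0.00591 with edgeR). Stim1, the reticulum's sensor for store-operated calcium entry, had 137, 137, 135 and 142 CPM in regorafenib and 178, 159, 193 and 191 CPM in vehicle (-0.39 ± 0.07, adjusted p = 0.00656 with edgeR). The partners of Cacna1s in the sensor, Cacnb1 and Cacna2d1, changed by -0.47 ± 0.10 and -0.48 ± 0.11. Jph2, the second junctophilin, changed by -0.37 ± 0.10. Ryr3, a minor release channel, had 32 counts over the 4 regorafenib libraries and 28 over the 4 vehicle libraries and did not pass (adjusted p = 0.72 with edgeR). Of 12 genes of muscle energy metabolism 2 fell and 0 rose (median -0.37), Ampd1 of purine cycling (-0.47 ± 0.10) and the phosphorylase kinase subunit Phka1 (-0.58 ± 0.15), and Ckm, muscle creatine kinase, did not pass at -0.35 ± 0.13 (adjusted p = 0.114 with edgeR).

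Of 8 counterparts of the coupling genes in heart or slow-twitch fibres, 1 fell with regorafenib and 0 rose, with a median log2 change of -0.39 and 6 of the 8 estimates below 0. Of all genes tested, 3.00% fell and 3.32% rose against vehicle, so single calls in lists this small carry little weight. Against regorafenib alone, 2 of the 8 counterparts were higher with anti-PD1+regorafenib and 0 were lower (median 0.47), where 5.67% of all genes tested were higher. Ryr2, the cardiac release channel, was at 0.00353 CPM per kb in regorafenib and 0.0147 in vehicle, against 29.1 and 47 for Ryr1 in the same order. Its 4, 2, 0 and 2 counts in the regorafenib libraries and 10, 7, 10 and 8 in the vehicle libraries gave a log2 change of -2.02 ± 0.49 (adjusted p = 0.0248 with edgeR), the call among the 8 against vehicle. Ryr2 passed the filter on low counts only through anti-PD1 and vehicle libraries, where it was higher, so this call gives no support for a fall. Casq2, cardiac calsequestrin, averaged 30.5 ± 4.09 CPM in regorafenib and 44.1 ± 16.3 CPM in vehicle and did not pass (adjusted p = 0.123 with edgeR). Atp2a2, the pump SERCA2, which cells of most tissues use, averaged 432 ± 39.9 CPM in regorafenib and 412 ± 58.6 CPM in vehicle (log2 change 0.07 ± 0.09, adjusted p = 0.677 with edgeR). Mylk3, known as the cardiac myosin light chain kinase, had 0.86, 1.02, 0.845 and 1.06 CPM in regorafenib and 1.67, 2.02, 2.45 and 1.71 CPM in vehicle. These low levels did not overlap, and Mylk3 fell by 1.03 ± 0.24 on the log2 scale (adjusted p = 0.0177 with edgeR). The cardiomyocyte myosin Myh6 had 2 counts over the regorafenib libraries and 3 over the vehicle libraries. Of 5 tested cardiomyocyte markers 1 rose, the natriuretic peptide gene Nppb, with 32, 24, 21 and 106 counts in regorafenib and 20, 18, 8 and 8 in vehicle (log2 change 1.78 ± 0.45, adjusted p = 0.0277 with edgeR). Of 5 tested genes of the slow-twitch sarcomere 1 rose and 0 fell (median -0.26), the tropomyosin Tpm3, also used outside muscle, at 0.26 ± 0.06 (adjusted p = 0.0225 with edgeR). None of 6 tested satellite cell and regeneration genes was called by edgeR (smallest adjusted p 0.111), and 3 of them had an unadjusted p below 0.05.

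Markers of other cells moved as well. Of 10 squamous epithelium markers 6 rose with regorafenib and 0 fell (median 0.40), where 3.32% of all genes tested rose. The keratin Krt14 of the basal layer had 4138, 3377, 4110 and 4645 CPM in regorafenib and 2640, 2191, 2195 and 1503 CPM in vehicle, without overlap (0.93 ± 0.20, adjusted p = 0.0134 with edgeR). The mean log2 CPM of the 10 markers was 10.41 to 10.61 in regorafenib, 9.89 to 10.22 in vehicle and at most 10.35 in any other library. Of 6 tested leukocyte markers the T cell genes Cd3e (1.42 ± 0.28) and Cd8a (1.61 ± 0.42) were called higher and 0 lower, both at low levels. Cd3e had 1.01 to 1.49 CPM in regorafenib and 0.259 to 0.692 in vehicle, and Cd8a 0.563 to 1.24 and 0.252 to 0.363. Cd8a passed the filter on low counts only through libraries outside vehicle, where it was higher, so its call gives no support for a rise. The fibroblast gene Dcn (-0.43 ± 0.13), the pericyte gene Pdgfrb (-0.51 ± 0.14) and the Schwann cell gene Sox10 (-0.65 ± 0.17) were the only calls of their lists, and 0 of 9 salivary gland and 0 of 4 adipocyte markers were called by edgeR, with 0 and 1 at an unadjusted p below 0.05. Salivary gland markers varied from 23.2 to 6869 summed CPM within regorafenib and from 4.68 to 8595 within vehicle. The part of these markers in the decline of the coupling genes was not tested, apart from the fits with the sarcomere and salivary gland scores as covariates.

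Relative to the sarcomere, the levels of the coupling genes were close in all 5 groups. The mean log2 CPM of the 10 genes minus that of the 22 sarcomere genes was -2.19 ± 0.08 in regorafenib (SD, n = 4), -2.17 ± 0.06 with anti-PD1 (n = 3), -2.18 ± 0.09 with anti-PD1+regorafenib (n = 5), -2.14 ± 0.14 with the anti-CD40 agonist (n = 3) and -2.17 ± 0.11 in vehicle (n = 4). The group means differed by less than the spread within groups, although the mean of the 10 genes itself was 7.21 to 7.56 in regorafenib and 7.79 to 7.95 in vehicle. Ryr1 was lower against the sarcomere too, at -0.26 ± 0.14 in regorafenib and 0.00 ± 0.19 in vehicle, with overlapping ranges of -0.46 to -0.14 and -0.23 to 0.21. Cacng1 was at -4.41 ± 0.14 in regorafenib and -4.60 ± 0.24 in vehicle, also overlapping.

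**Figure D4:**
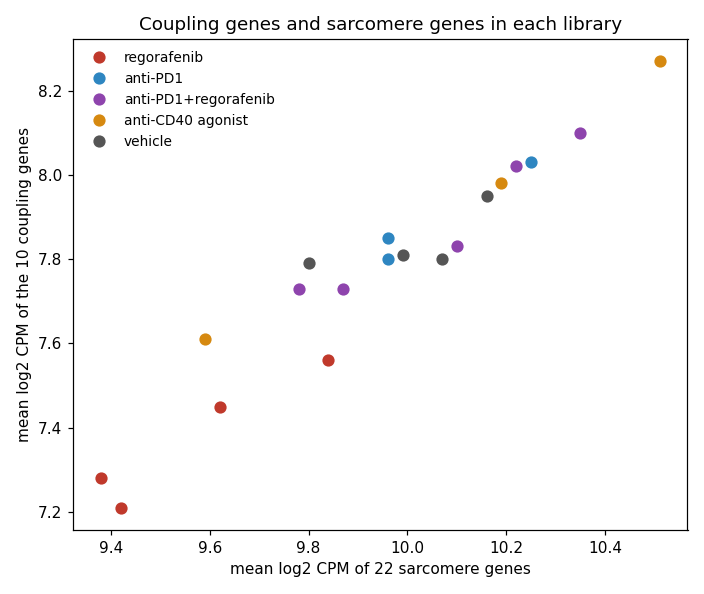
Mean log2 CPM of the 10 coupling genes against the mean log2 CPM of 22 sarcomere genes, with 1 point per library coloured by group. The regorafenib points lie lowest on the vertical axis, at 7.21 to 7.56, and libraries of all groups lie along 1 band.

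With the sarcomere score as a covariate in the fit, 1 of the 10 genes was called against vehicle in place of 7. Ryr1 kept a change of -0.49 ± 0.08 (adjusted p = 0.0157 with edgeR), Trdn came to -0.31 ± 0.07 (adjusted p = 0.0615) and Cacna1s to -0.28 ± 0.09 (adjusted p = 0.148). Casq1 and Jsrp1 came to 0.02 and Cacng1 to 0.21, each with the sign turned and none called. Against the combination, anti-PD1 and the anti-CD40 agonist, 0 of the 10 were called with this covariate. The Ryr1 interaction stayed called, at 0.61 ± 0.11 (adjusted p = 0.0242 with edgeR). The score itself differed between regorafenib (9.38 to 9.84) and vehicle (9.80 to 10.16), so drug and muscle content cannot be told apart in this fit. Over the whole table, 60 genes were called against vehicle with the covariate and 1069 without it.

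**Figure D5:**
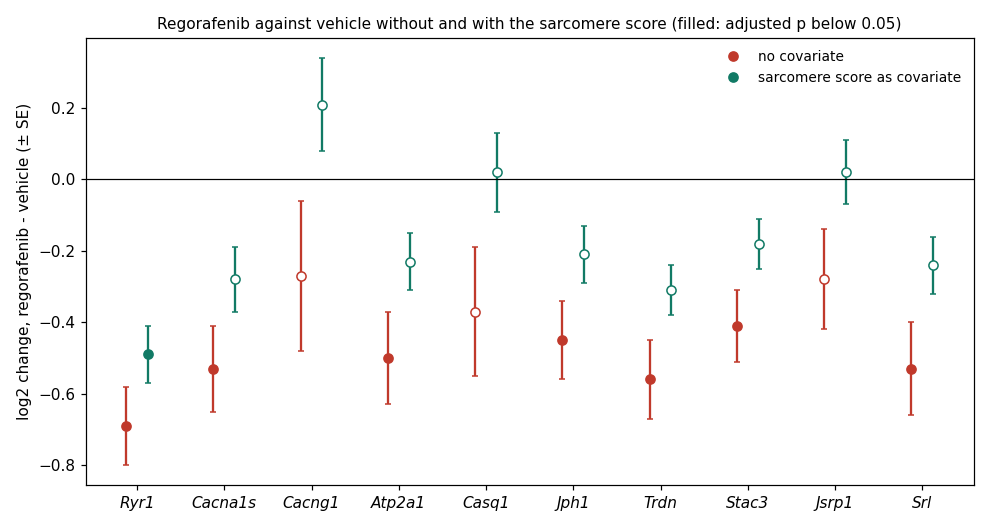
Log2 change with regorafenib against vehicle, ± SE, without a covariate and with the sarcomere score as a covariate, filled where the adjusted p is below 0.05. With the score, Ryr1 remains filled at -0.49, and Cacng1, Casq1 and Jsrp1 lie above 0.

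Among themselves the 10 genes varied in near proportion across the 19 libraries. The SD of log2 CPM over the libraries was 0.23 for Stac3 to 0.33 for Cacng1 and Casq1, and the highest library was 1.95 to 2.43 times the lowest. For the 45 pairs, the SD of the log2 ratio had a median of 0.15. It was smallest, 0.073, between Cacna1s and Srl, whose mean ratio was -1.04 in regorafenib and -1.05 in vehicle, and largest, 0.278, between Ryr1 and Cacng1, whose ratio averaged 4.16 in regorafenib and 4.59 in vehicle. Averaged over the 10 genes, log2 CPM relative to each gene's own mean was -0.57 to -0.22 in the regorafenib libraries, 0.01 to 0.17 in vehicle, and ranged most with the anti-CD40 agonist, from -0.17 to 0.50.

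Among the genes outside the 10 whose course over the 19 libraries was closest to this average, by root mean square difference of centred log2 CPM, were Tmod1 (0.058), Cap2 (0.061), Tmem38a (0.063) and Pygm (0.064), against a median of 0.31 over 13323 eligible genes. Tmod1 caps thin filaments, Cap2 binds actin, Tmem38a encodes a cation channel of the reticulum, and Pygm breaks down glycogen. Of the 10 themselves, Atp2a1 was closest (0.064) and Cacng1 farthest (0.177). The average contains each of the 10, so their distances cannot be set against those of the genes outside. The log2 change of these 4 genes with regorafenib against vehicle was -0.46 for Tmod1, -0.46 for Cap2, -0.42 for Tmem38a and -0.41 for Pygm, and Pygm did not pass (adjusted p = 0.0827 with edgeR).

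In the annotation on GRCm38, Ryr1 lies at chr7:29003344-29125179 and Atp2a1 at chr7:126445858-126463108, both on the minus strand. Cacna1s, Casq1 and Jph1 are on chromosome 1, Trdn, Stac3 and Jsrp1 on chromosome 10, Cacng1 on chromosome 11 and Srl on chromosome 16. Exons of Ryr1, Cacna1s, Casq1 and Jph1 overlap those of antisense or small RNA genes on the other strand, and an exon of Atp2a1 overlaps the protein-coding gene Rabep2. The kit keeps the strand, but the setting used in counting is not given in the sources used here, so a share of reads from the other strand cannot be told apart in these 5 genes.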

How the data were processed

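The authors deposited whole-number read counts per gene, not normalized, for 55487 versioned Ensembl genes in 19 columns whose names gave the sample of each. Per the labels' protocols, total RNA was prepared into stranded libraries of polyadenylated RNA. The submitters' processing notes name STAR 2.7.2a, cutadapt 2.4 and build GRCm38. The tool that counted reads is not given in the sources used here.

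Symbols, exon lengths and coordinates came from GENCODE M21, where 55227 identifiers matched without the version. Genes of low count were left out by filterByExpr of edgeR with the groups given, and TMM scaled the libraries. A robust quasi-likelihood model in edgeR 4.0.16 (R 4.3.3) with 1 mean per group was fitted over all 19 libraries, with 14 residual degrees of freedom. P-values are two-sided and adjusted by Benjamini-Hochberg over 16909 genes, with a threshold of 0.05. The SE was taken as the size of the log2 change over the root of F. For log2 CPM, 2 was the prior count. On simulated data for regorafenib against vehicle (16742 genes), 96% of genes changed 2-fold and 77% changed 1.5-fold were recovered. The changed genes were drawn from the more abundant ones and each gene was simulated independently. The recovery therefore does not cover genes of low count or genes that vary together. Against vehicle, most of the coupling genes changed by less than 1.5-fold, as Trdn did at 0.677 of the vehicle level. Recovery at such smaller sizes was not simulated. All pairs of libraries differed beyond sampling noise, with a chi-square of at least 12.9 per degree of freedom.

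The genes and all 16 lists (165 genes) were chosen with earlier results of these data known. All 10 coupling genes were named. Of each list, up to 4 called genes with the smallest p per comparison and 11 fixed genes were to be named. Myh6 was named after its values were seen, and the 5 stomach genes were known from earlier results of these data. The 5 most similar genes were taken among those with a mean of at least 1 CPM, and 1 of them is not reported here. The alternatives were DESeq2 1.42.0, limma 3.58.1 with sample weights, RLE scaling, no filter, a fit of only the groups compared, a block for the replicate number, the sarcomere score as a covariate, exon length and GC offsets (loess span 0.3) and leaving out each library. The salivary gland score as a covariate and a non-robust prior were chosen after seeing the data.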

Additional observations from a re-analysis of the deposited data

Results flagged for a closer look

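In the reported fit, the change of Ryr1 with regorafenib differed with and without anti-PD1. The dose of regorafenib in the combination is not given in the sources used here, so equal dosing of the 2 groups is not known. The difference was 0.82 ± 0.15 on the log2 scale (adjusted p = 0.0248 with edgeR's interaction test), as the change with regorafenib was 0.13 ± 0.11 in the presence of anti-PD1 and -0.69 ± 0.11 in its absence. Ryr1 was the only one of the 10 genes to pass, but the interaction was not particular to it. The sarcomere gene Neb passed as well, at 0.92 ± 0.15 (adjusted p = 0.0138 with edgeR), and 20 of 22 sarcomere genes were above 0. All 5 combination libraries had at least 889 CPM of Ryr1 and all 4 regorafenib libraries at most 669 CPM. With offsets for exon length and GC content the difference was 0.57 ± 0.14 and did not pass (adjusted p = 0.124). Over the leave-one-out fits it ran from 0.77 to 0.92, with adjusted p from 0.00923 to 0.106, and it was not called without vehicle library 3 or 4, anti-PD1 library 1 or 3, or regorafenib library 4. Its cause was not tested.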

How the results depend on the processing

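Of the 10 coupling genes, the number called for regorafenib against vehicle was 7 with RLE scaling, no filter, DESeq2, limma, only the groups compared, the replicate block, the length and GC offsets, the salivary gland score and the non-robust prior, and 1 with the sarcomere score as a covariate. The sarcomere score also took the counts for the combination against regorafenib, regorafenib against anti-PD1, regorafenib against the anti-CD40 agonist and any difference to 0, where each was 7. The interaction, 1 in the reported fit, was 4 with DESeq2, 2 with limma, no filter or only the groups compared, 3 with the salivary gland score and 0 with the offsets. Regorafenib against the anti-CD40 agonist was 0 with only the groups compared. Leaving out 1 library gave 2 to 7 for regorafenib against vehicle, 6 to 8 for the combination against regorafenib, 0 to 8 for regorafenib against anti-PD1, 0 to 9 for regorafenib against the anti-CD40 agonist, 0 to 2 for the interaction and 0 to 8 for any difference. The 4 comparisons that called 0 did so in all fits.

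Signs turned with the sarcomere score for regorafenib against vehicle (Cacng1 0.21, Casq1 0.02, Jsrp1 0.02), the combination against regorafenib (Cacng1 -0.18, Jsrp1 -0.12), regorafenib against anti-PD1 (Cacng1 0.02) and against the anti-CD40 agonist (Cacng1 0.17), and the interaction (Cacng1 -0.37, Casq1 -0.12, Jsrp1 -0.19). The Cacng1 interaction was also 0.00, just below zero, with limma, and -0.04 to 0.24 over the leave-one-out fits. None of these was called, and the cause was not tested.

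The replicate numbers of the titles did not pair the libraries. Same-numbered libraries correlated at -0.45 to 0.539 over 33 pairs, and 6 of 19 libraries correlated best with their own number. With the replicate block, 4 of the 10 were called for regorafenib against anti-PD1, 4 for any difference and 0 for the interaction, where Ryr1 had 0.88 ± 0.17 (adjusted p = 0.0518 with edgeR).

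Over all genes, the 1069 calls for regorafenib against vehicle became 1670 with DESeq2, 1673 with limma and 60 with the sarcomere score, and 269 to 1415 without 1 library. Over the alternatives that keep every library of the groups compared, the count ran from 5 (sarcomere score) to 3052 (limma) around 1768 for the combination against regorafenib, from 3 to 3001 around 1410 for regorafenib against anti-PD1, from 0 to 1761 around 340 against the anti-CD40 agonist, from 39 to 2889 around 760 for any difference, and from 22 (offsets) to 584 (DESeq2) around 106 for the interaction. Leaving out 1 library gave 484 to 2300, 20 to 2069, 0 to 1776, 39 to 1924 and 11 to 178 in the same order. DESeq2 called 71 genes for anti-PD1, 125 for the combination and 5 for the anti-CD40 agonist against vehicle and 106 for the combination against anti-PD1, where the reported counts were 0, 4, 0 and 1. With the offsets the split of higher and lower calls was 994 and 516 for regorafenib against anti-PD1, against 703 and 707, and 516 and 669 for the combination against regorafenib, against 958 and 810, and 12 and 10 for the interaction, against 76 and 30. Groups of 3 to 5 libraries limit how small a change can be called.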
